A study of Bos taurus with 2 samples.

Results

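The coiled-coil domain containing genes (CCDC) are the genes whose name on the bovine array is CCDC followed by a number. The rule uses the name and no signal, although the group was picked for study with earlier results of these data known, and 127 of the 32429 gene names on the array met the rule. These 127 genes had 232 of the 51282 probes and 245 of the 61657 spots. RNA came from the right testis of Holstein Friesian crossbred bulls with 50 to 75 percent exotic inheritance and of Zebu bulls of the Tharparkar breed, all 24 months old. Within each group the RNA of 3 bulls was mixed in equal quantity, labelled with Cy3 and hybridized to 1 array, and both arrays lay on the same slide. Each group is therefore 1 pool of a few animals, the spread between animals cannot be seen, and the differences below come without replicates and without p-values. The comparison asks which testicular transcripts differ between crossbred bulls, which are subfertile more often, and Zebu bulls.

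A coiled coil is a pair or bundle of helices wound around each other, and it serves as a spacer, a tether or a docking surface in large protein assemblies. CCDC is a naming convention rather than a family by descent: the name was given to predicted proteins that held such a stretch and had no known function. Many members have since been placed in the axoneme, the microtubule core of cilia and of the sperm tail, where they dock dynein motors, link neighbouring doublets or line the inside of the tubules. Testis is rich in such transcripts because round and elongating spermatids build a tail. Other members work at the centrosome, in the spliceosome, in mitochondria, in vesicle traffic or outside the cell.

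Values are normalized log2 signals: the log2 of the processed spot signal minus the 75th percentile of the same array, so that 0 is the level of that percentile. Every difference is crossbred minus Zebu on that scale. Where a gene had several probes, the one with the highest mean level over both arrays was used. A gene is called higher or lower when its difference is 1.5 or more in size (2.83-fold) and the scanner software marked its brighter array as well above background. Where 1 array was not well above background the difference is a bound, the brighter value minus the larger of the dim value and the lowest value well above background on that array, which was -5.78 on the crossbred and -5.94 on the Zebu array. As a tolerance, the SD between replicate spots of a probe gives 0.33 for a difference over 5960 probes of the array and 0.13 over the 9 CCDC probes with several spots, which includes the error of spotting and scanning but not that of labelling, pooling or animals. The scanner software marked 72.0% of spots on the crossbred and 74.3% on the Zebu array as well above background, and 0 spots were saturated. A patch of 544 spots on the crossbred array was dark and another of 105 spots was bright, and their CCDC members are marked wherever they appear.

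Because each value rests on 1 probe of 60 bases, the probes behind the clearest results are shown first, 5′ to 3′, with the coordinates and strand that the array annotation gives on the HGSC Btau_3.1 build. The first pair, of CCDC63, and the next pair, of CCDC159, are shown because separate stretches of the same gene gave nearly the same difference. CCDC129 is shown because it had the largest difference on a probe well above background on both arrays, an order that does not hold with normexp background correction, and it had no other probe. The CCDC91 probes are shown because they disagree: the first gave the difference used for the gene and the second lies in the dark patch. The CCDC167 probes are reverse complements of each other over all 60 bases, which the capitals mark, so that they read opposite strands of the same place. A span longer than the probe means that the annotation places its bases on both sides of a gap in the genome.
CCDC63, probe used, chr17:57508171-57512715 (+): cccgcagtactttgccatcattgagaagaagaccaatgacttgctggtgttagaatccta
CCDC63, other probe, chr17:57496981-57497040 (+): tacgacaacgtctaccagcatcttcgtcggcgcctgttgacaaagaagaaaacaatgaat
CCDC159, probe used, chr7:14211148-14211379 (+): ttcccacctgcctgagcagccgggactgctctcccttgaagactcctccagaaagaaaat
CCDC159, other probe, chr7:14209613-14209897 (+): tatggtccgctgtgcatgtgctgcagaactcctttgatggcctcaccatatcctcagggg
CCDC129, only probe, chr4:67342735-67342794 (-): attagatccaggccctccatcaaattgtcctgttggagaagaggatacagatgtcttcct
CCDC91, probe used, chr5:87491015-87491162 (-): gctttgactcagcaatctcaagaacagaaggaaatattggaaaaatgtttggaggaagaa
CCDC91, probe in the dark patch, chr5:87535820-87535879 (-): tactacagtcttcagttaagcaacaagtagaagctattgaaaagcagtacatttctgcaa
CCDC167, probe of the annotated strand, chr23:11739053-11740466 (-): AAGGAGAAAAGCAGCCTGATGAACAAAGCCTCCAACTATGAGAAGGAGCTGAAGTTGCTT
CCDC167, probe of the other strand, chr23:11739053-11740466 (+): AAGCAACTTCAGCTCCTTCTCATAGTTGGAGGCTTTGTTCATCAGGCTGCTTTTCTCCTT

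Most CCDC genes were present in both pools. Of the 127 genes, 121 (95.3%) were read from a probe well above background on both arrays, against 70.4% of all transcripts. CCDC12 and CCDC141 passed this mark in the Zebu pool alone. CCDC11 (now CFAP53), CCDC42B (CFAP73), CCDC48 (EFCC1) and CCDC142 were not well above background on either array. Levels on the arrays correlated with a Pearson coefficient of 0.940 across the 121 genes, and of 0.955 across all 22842 transcripts measured on both; genes are not replicates.

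The CCDC genes as a set lay toward the crossbred pool. Their median difference was 0.35, while the median of all detected transcripts was -0.05. Among the 121 genes measured on both arrays the middle 50 percent ran from -0.10 to 0.94, against -0.49 to 0.45 for all transcripts. A difference above 0 was found for 83 of the 121 (68.6%), where the background over all transcripts was 47.7%. By the tolerance, 65 genes (53.7%) exceeded the spot SD upward and 26 (21.5%) downward, against 29.8% and 33.4% of all transcripts, and 30 lay within it.

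At the threshold of 1.5, 15 of the 123 detected CCDC genes were higher in crossbred testis (12.2%), beside a background of 7.12% of all detected transcripts, and 2 were lower (1.63%), beside 2.92%. At a threshold of 1 the numbers were 26 higher (21.1%, background 12.8%) and 7 lower (5.69%, background 8.87%). In order of size the 15 higher genes were CCDC129, CCDC27, CCDC159, CCDC153, CCDC149, CCDC91, CCDC70, CCDC125, CCDC63, CCDC54, CCDC37, CCDC28A, CCDC109B, CCDC164 and CCDC105. The lower genes were CCDC12, whose spot lies in the dark patch, and CCDC84. Just inside the threshold were CCDC164 at 1.53 and CCDC105 at 1.52, and just outside it was CCDC116 at 1.43. Some of these calls lie close to the threshold: CCDC105 fell short of it with normexp background correction (1.46) and with the percentile over detected probes (1.49), CCDC149 with normexp (1.44), and CCDC109B (1.44) and CCDC164 (1.45) with quantile normalization. When the probes of a gene were averaged, CCDC37 (1.33), CCDC109B (1.37), CCDC28A (0.68) and CCDC91 (-1.07) fell short as well, and CCDC84 (-1.09) was no longer lower. The CCDC91 average includes its spot in the dark patch. As the strip plot of the differences by role list shows, 9 of the 15 higher genes belong to the axoneme or the sperm list.

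**Figure D1:**
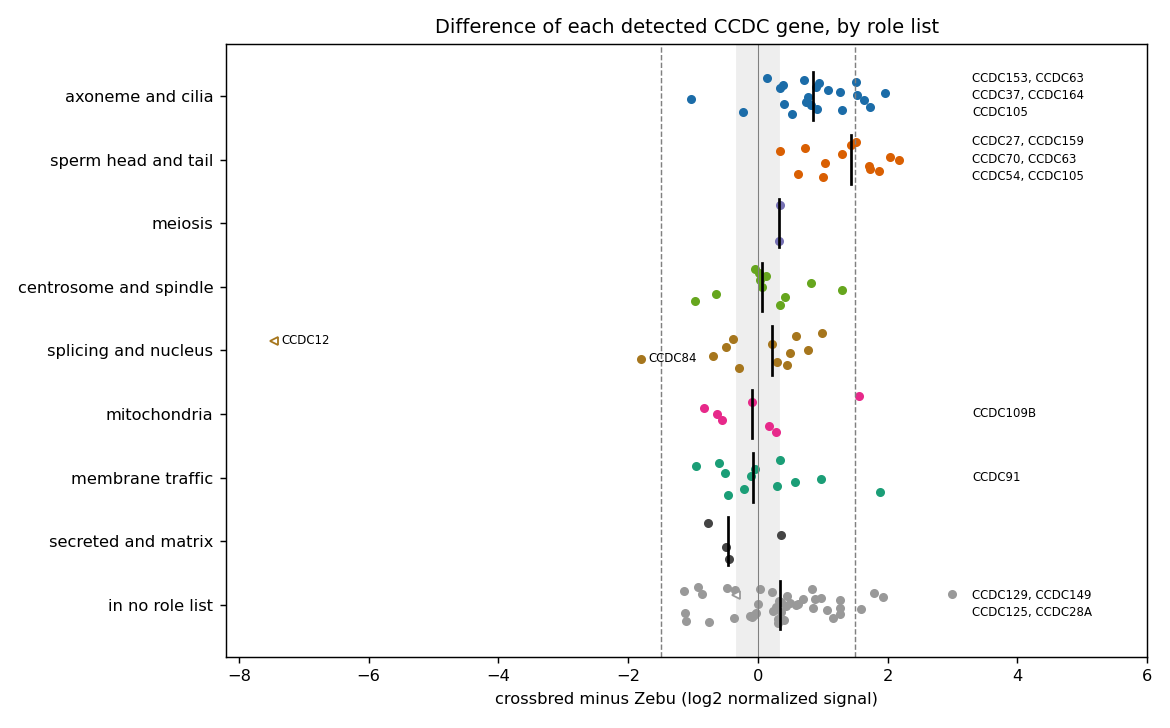
Crossbred minus Zebu difference (log2 normalized signal, x axis) of each detected CCDC gene, in rows by role list; filled points are genes well above background on both arrays, open triangles are bounds, black bars are medians, the grey band is the spot SD of 0.33 in each direction and dashed lines mark 1.5 in size. Genes in more than 1 list appear in each; higher genes are named at the right, and the sperm head and tail row lies wholly to the right of 0 with a median of 1.43.

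The axoneme and cilia list held 23 genes of the array, of which 22 were measured on both arrays and CCDC11 on neither. Of the 22, 5 were higher in crossbred testis and 0 lower, 20 lay above 0 and 2 below, and the median difference was 0.85, beside -0.05 for all transcripts. Here and in the lists below, counts at the threshold stand beside 7.12% higher and 2.92% lower of all detected transcripts. In a short list a count of 0 is near those shares. The range ran from -1.03 to 1.96. The list says nothing of which cell type the RNA came from, since motile cilia and sperm tails share these parts, and in a pool of whole tissue fewer cells of a type and less RNA per cell cannot be told apart.

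Subunits that dock the outer dynein arms all lay above 0. CCDC151 (now ODAD3), a docking complex subunit, read 4.31 in the crossbred and 3.05 in the Zebu pool, a difference of 1.26 with 0.96 on its other probe. CCDC63, a relative of the docking subunit CCDC114 that is known for its place in the sperm tail, read 2.51 against 0.77, a difference of 1.73, and the second probe printed above differed by 1.60. CCDC114 itself, the docking subunit of cilia, read -3.78 against -4.18, a difference of 0.39. CCDC114 rests on 1 probe, and with normexp background correction its difference was 0.22, within the spot SD. CCDC103, a factor needed to attach dynein arms, differed by 0.14, which is within the tolerance. CCDC11 lines the inside of the tubules and read -7.95 against -8.08, not well above background.

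The nexin-dynein regulatory complex, the link between neighbouring doublets, lay in the same direction. CCDC164 (DRC1), its scaffold subunit, read 3.57 in the crossbred and 2.03 in the Zebu pool, a difference of 1.53 or 2.89-fold. CCDC65 (DRC2), the partner of DRC1 in that scaffold, read 3.89 against 2.98, and its replicate spots differed by 1.01 and 0.82. CCDC135 (DRC7) differed by 0.89 on the probe used and by 0.97 on its other probe. CCDC153, which has been placed with the same complex, read 0.06 against -1.90, a difference of 1.96, the largest in the list. Among the other docking and regulatory complex genes, a list of partners without the CCDC name, all 8 on the array lay above 0, 0 of 8 reached 1.5, and the median was 0.47. IQCD at 1.24, TTC25 at 1.22 and ARMC4 at 1.06 were the largest of these, and LRRC48 at 0.13 the smallest.

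The ruler proteins and the proteins inside the tubules also lay above 0 where they were measured on both arrays. CCDC39 and CCDC40 together set the length of the axonemal repeat. CCDC39 read 0.10 against -0.64, a difference of 0.74, and CCDC40 read 1.49 against 1.09, a difference of 0.40 with 0.20 on its other probe. CCDC96 differed by 0.53 with 0.13 on a second probe, and CCDC113, its partner at the base of the radial spokes, differed by 0.94 with 1.28 on a second probe. CCDC37 (CFAP100), which helps hold inner dynein arms, read 2.73 against 1.09, a difference of 1.64. Its second probe was well above background on the crossbred array only and was at least 2.02-fold higher there. CCDC105, a tektin-like protein of the tubule lumen in sperm, read 0.17 against -1.35, a difference of 1.52. CCDC19 (CFAP45), another lumenal protein, differed by 0.76, CCDC147 (CFAP58) by 1.08 and CCDC104 (CFAP36) by 0.70 with 0.89 on its other probe.

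Genes of centriole amplification and cilium length did not lie together. CCDC67 (DEUP1), a builder of the deuterosome from which multiciliated cells make their centrioles, read -0.05 against -1.34, a difference of 1.29 with 1.22 on its other probe. CCDC78, also placed at the deuterosome, read -3.64 against -3.42, a difference of -0.22 with -0.40 on a second probe. CCDC28B, a modifier of cilium length, read -0.90 against 0.13, a difference of -1.03, and its other probe gave -1.07. These were the only members of the list below 0. CCDC57, a centrosome and centriole protein, differed by 0.82 from low levels of -4.33 and -5.15, and CCDC146 by 0.35.

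The sperm head and tail list was the most one-sided of the longer lists, but all lists were chosen with earlier results of these data known. Some of its genes, such as CCDC70 and CCDC54, are known mainly as testis transcripts. It held 14 genes of the array and 13 were measured on both arrays, all above 0 and all beyond the spot SD, from 0.35 to 2.17 with a median of 1.43. Of these, 6 were higher at the threshold and 0 lower, beside 7.12% and 2.92% of all detected transcripts. CCDC42B was not well above background on either array. The list shares CCDC63, CCDC105 and CCDC146 with the axoneme list, so the lists are not independent of each other.

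CCDC27 read -0.80 in the crossbred and -2.97 in the Zebu pool, a difference of 2.17 with 1.32 on its other probe. CCDC159 read 2.94 against 0.90, a difference of 2.03 or 4.09-fold, and its other probe, a separate stretch printed above, gave 2.02. CCDC70, known mainly from testis, read 2.87 against 1.01, a difference of 1.86. CCDC54, likewise a testis transcript, read 4.07 against 2.36, a difference of 1.71. These differences were each more than 5 times the spot SD, and CCDC70 and CCDC54 had no second probe. CCDC116 read 1.96 against 0.54, a difference of 1.43 with 0.92 on its other probe, and CCDC157 differed by 1.29 with 1.12 on its other probe.

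The members of the list not yet described had smaller differences. They are set apart here by size and not by role. CCDC42, needed for the manchette and the attachment of head to tail, read 1.07 against 0.03, a difference of 1.04. CCDC136, which acts in acrosome formation, had 3 probes that differed by 0.73, 1.0 and 0.97. CCDC89 differed by 0.99. CCDC83 had the lowest differences among genes of the list with 3 probes, 0.62, 0.41 and 0.37, of which the last pair share 42 bases. Taking the axoneme and sperm lists as 1 set of 32 genes measured on both arrays, 30 lay above 0 with a median of 0.97 and 9 were higher at the threshold. The CCDC genes in neither list had a median of 0.22, with 53 above 0 and 38 below. Of them 6 were higher and 2 lower, both near the shares of 7.12% and 2.92% over all detected transcripts.

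**Figure D2:**
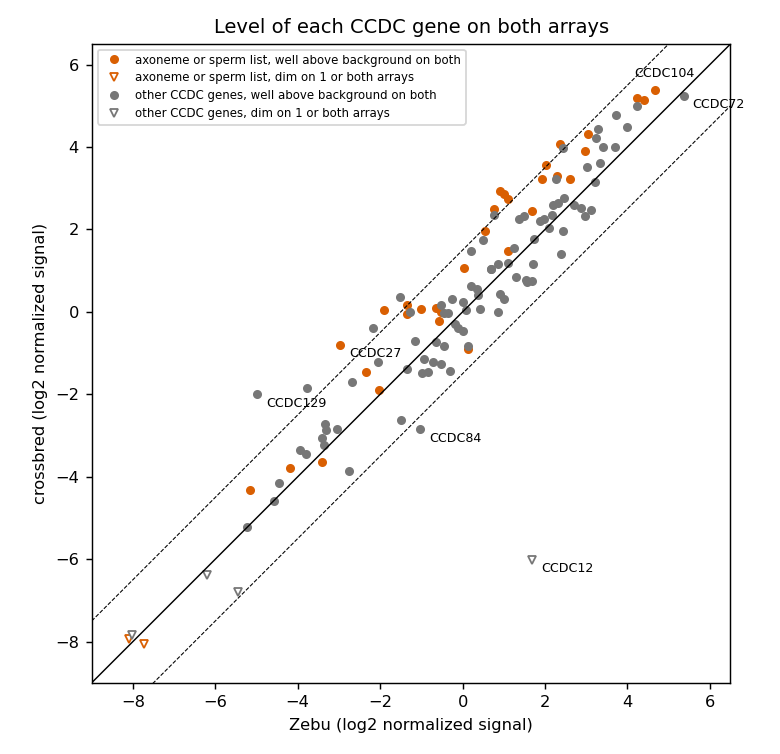
Normalized log2 signal of each CCDC gene on the Zebu array (x axis) and the crossbred array (y axis); orange marks genes of the axoneme or sperm list, grey the others, open triangles genes not well above background on 1 or both arrays, the solid line equality and the dashed lines a difference of 1.5. Of the 32 orange filled points 30 lie above the line of equality, and CCDC12 lies far below it.

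Only 2 meiosis genes were on the array, and both lay close to the spot SD. CCDC36 (IHO1), which is required for the breaks that start recombination, read 1.17 against 0.85, a difference of 0.32, and its other probes gave 0.33 and 1.13. CCDC155 (KASH5), which links chromosome ends to dynein across the nuclear envelope, read 2.21 against 1.87, a difference of 0.33.

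Centrosome and spindle genes were divided: 8 of 11 lay above 0 and 3 below, the median was 0.06 and 0 reached the threshold. The highest were CCDC67 and CCDC57, which the axoneme list also holds. CCDC8, a subunit of the complex that guards microtubule and genome integrity, had the lowest difference, with 1.41 against 2.38 or -0.97, and -0.49 on its other probe. CCDC69, a regulator of the spindle midzone, differed by -0.65 with -0.59 on its other probe. CCDC66, a ciliary and centriolar satellite protein, had 4 probes at 0.06, 0.58, 0.19 and 0.07, and CCDC77 had 3 at 0.41, 0.74 and -0.16.

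In the splicing and nucleus list 7 of 13 genes lay above 0 and 6 below, with a median of 0.21, 0 higher and 2 lower. CCDC12, a component of the spliceosome, has 1 probe, at chr22:53923208-53923267 on the plus strand. It read -6.02 on the crossbred array, not well above background, and 1.69 on the Zebu array, a bound of -7.46 or at least 176-fold lower. That size depends on the background correction, since normexp gave -5.41. That spot lies in row 77 and column 38, inside the dark patch, and the median difference of the 18 spots nearest to it was -3.10. No other CCDC12 probe exists on the array, so the gene has no value outside the patch.

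CCDC84 (CENATAC), a factor of the minor spliceosome, read -2.84 in the crossbred and -1.04 in the Zebu pool, a difference of -1.81. It lies outside the patches, with a median of -0.14 over its nearest spots. A second CCDC84 probe passed background in the Zebu pool alone and was at least 1.30-fold lower in the crossbred. The annotation places the first at chr15:28096423-28096482 on the plus strand and the second at chr15:28247741-28247875 on the minus strand, so that they do not read the same stretch or strand. With its probes averaged CCDC84 differed by -1.09, short of the threshold, so the only lower call outside the patches depends on the probe. The splicing partners, 15 genes that work with CCDC12 in the spliceosome, gave 7 above 0 and 8 below, a median of -0.02 and 0 at the threshold.

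The highest of the nuclear genes stayed below the threshold. CCDC101 (SGF29), the histone reader of a coactivator complex, read 4.23 against 3.25, a difference of 0.98, and a second probe with 4 spots gave 0.96 to 1.39 spot by spot. CCDC59 differed by 0.77 with 1.0 on its other probe. CCDC106, a nuclear protein that binds p53, had 4 probes between 0.39 and 0.59, and CCDC97 had 3 between -0.30 and 0.08.

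Of 7 mitochondrial genes, 3 lay above 0 and 4 below with a median of -0.10. CCDC109B (MCUB), the paralogue that restrains the mitochondrial calcium uniporter, read 3.99 in the crossbred and 2.43 in the Zebu pool, a difference of 1.56 or 2.95-fold, and its other probe gave 1.18. It was the sole member of this list at the threshold. CCDC90A (MCUR1), a regulator of the same channel, differed by 0.17, and its relative CCDC90B by 0.29 with 0.03 on a second probe. Of the genes listed beside the uniporter and described here, the pore MCU differed by 0.79, LETM1 by 0.74 and EFHA1 by 0.13. EFHA2 differed by 1.80, past the threshold.

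The other mitochondrial members lay below 0. CCDC51, a subunit of a mitochondrial potassium channel, read 0.74 against 1.57, a difference of -0.83 with -1.16 on its other probe. CCDC56 (COA3), an assembly factor of cytochrome c oxidase, differed by -0.63 with -0.81 on its other probe. CCDC58 (MIX23) had probes at -0.55, -0.41 and -0.18, and CCDC127 differed by -0.10 with -0.00 on its other probe.

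Membrane traffic genes gave 5 above 0 and 7 below, a median of -0.07, 1 higher and 0 lower. CCDC22 and CCDC93 are subunits of the complex that recycles receptors with the COMMD proteins. CCDC22, on the X chromosome, read -0.82 against 0.13, a difference of -0.95 with -0.35 on its other probe, and 31 bases of the probe used lie opposite to a FOXP3 probe that differed by -0.36. CCDC93 had 4 probes, at -0.47, -1.24, -0.19 and -0.22. Of 14 COMMD and WASH partners, 10 lay below 0 and 4 above, the median was -0.23, and 0 reached the threshold. COMMD8 at -1.0 was the lowest and WASH1 at 0.70 the highest.

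CCDC91, a binding partner of the Golgi adaptors that sort cargo to endosomes, gave values in both directions. Its used probe read 0.36 in the crossbred and -1.52 in the Zebu pool, a difference of 1.88. A second probe outside the patches, at chr5:87382072-87382131, read -1.28 against -0.66, a difference of -0.62. The third lies in the dark patch, in row 83 and column 41, where the median of the nearest spots was -4.75, and it read -7.98 against -1.30, at least 22.3-fold lower. Even without the patch, the sign of the gene depends on the probe. CCDC64, an adaptor of dynein to vesicles, differed by 0.96 with 0.24 on its other probe, and CCDC132 (VPS50), a tethering subunit, by -0.61 with -0.28. CCDC88A (girdin) had 3 probes between 0.24 and 0.58, and CCDC47, which helps insert proteins in the endoplasmic reticulum, had 3 between -0.51 and -0.04.

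Of the 4 secreted and matrix proteins 3 lay below 0, with a median of -0.47 and 0 at the threshold. Over all transcripts measured on both arrays 47.7% lay above 0, so in so short a list this count is near the background. CCDC80, a matrix protein, read 0.84 against 1.29, and both of its spots gave -0.44, with -0.42 and -0.65 on other probes. CCDC126 differed by -0.77 with -0.46 on its other probe. CCDC3, a secreted protein, read -1.47 against -0.98, a difference of -0.49, and its other probe, dim in the crossbred pool alone, was at least 2.44-fold lower there. CCDC134 read -3.07 against -3.42, a difference of 0.35.

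Beyond the role lists, 46 CCDC genes had no assigned role here. Of these, 29 lay above 0 and 15 below, 4 were higher and 0 lower, the median was 0.34, and CCDC48 and CCDC142 were not well above background. CCDC129 read -2.00 in the crossbred and -4.99 in the Zebu pool, a difference of 3.0 or 7.98-fold, but the difference was 1.68 with normexp background correction. Its spot lies in column 164, at the edge of the array, and the median of its nearest spots was 0.16. CCDC149 read -1.85 against -3.78, a difference of 1.92 with 1.83 on its other probe, and that other probe repeats a probe listed under a predicted transcript that differed by 1.99. CCDC125 read -0.38 against -2.18, a difference of 1.79, and the median of its nearest spots was 0.53. CCDC28A read 2.34 against 0.76, a difference of 1.58, but its other probe read 0.63 against 0.85, a difference of -0.22, although the annotation places both on chromosome 9 within the same strand at 78858565 and 78858943.

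At the low end of these genes CCDC120, on the X chromosome, read -1.44 against -0.30, a difference of -1.14, while its other detected probes gave -0.34 and 0.09. CCDC68 differed by -1.13. CCDC141 read -6.80 against -5.44, was dim in the crossbred pool alone, and was at least 1.26-fold lower there. CCDC85C differed by -1.11, and another of its probes was at least 2.10-fold lower. Among genes with 3 detected probes, CCDC34 gave 1.06, 0.52 and 1.53, CCDC167 gave 0.50, 0.35 and 0.69, CCDC112 lay between -0.07 and 0.04, and CCDC64B between -0.36 and -0.03. The CCDC167 probes that mirror each other read 3.07 against 2.38 on the annotated strand and -3.04 against -3.39 on the other strand, so both strands gave signal above background and a difference above 0.

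Where a gene had several probes they mostly lay on the same side. There were 90 further detected probes for 69 CCDC genes, and 79 of them (87.8%) had the sign of the probe used, against 73.9% of 15038 such probes on the whole array. Over the 84 pairs measured on both arrays the differences had a Pearson correlation of 0.77 and a Spearman correlation of 0.80, beside 0.57 and 0.59 over 13587 pairs of the whole array. The pairs share the RNA pools and some of them overlap in sequence, so they describe probes and not animals. CCDC genes were also brighter, with median levels of 0.42 in the crossbred and 0.38 in the Zebu pool. For all transcripts these were -2.69 and -2.76. CCDC differences also lay more to 1 side, and the part of either in the agreement was not tested. The median gap between probes of a gene was 0.22, and 4 of 84 pairs lay more than 1 apart. Of the 69 genes, 38 had every detected probe above 0, 22 had none above 0 and 9 were mixed.

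For the 15 higher genes the further probes were fewer. Of these genes, 8 had 9 further probes, 6 with the same sign (66.7%) and 3 also at 1.5 or more, those of CCDC159, CCDC149 and CCDC63. Among all higher transcripts of the array, 533 of 670 further probes (79.6%) had the same sign and 296 were also at 1.5 or more. By these shares the higher CCDC genes lay below the array, but their 9 further probes include 1 of CCDC91 in the dark patch. The probes of the opposite sign belonged to CCDC91, the probe in the patch among them, and to CCDC28A. The other 7 higher genes, CCDC129, CCDC153, CCDC70, CCDC125, CCDC54, CCDC164 and CCDC105, rest on 1 probe and 1 spot each.

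**Figure D3:**
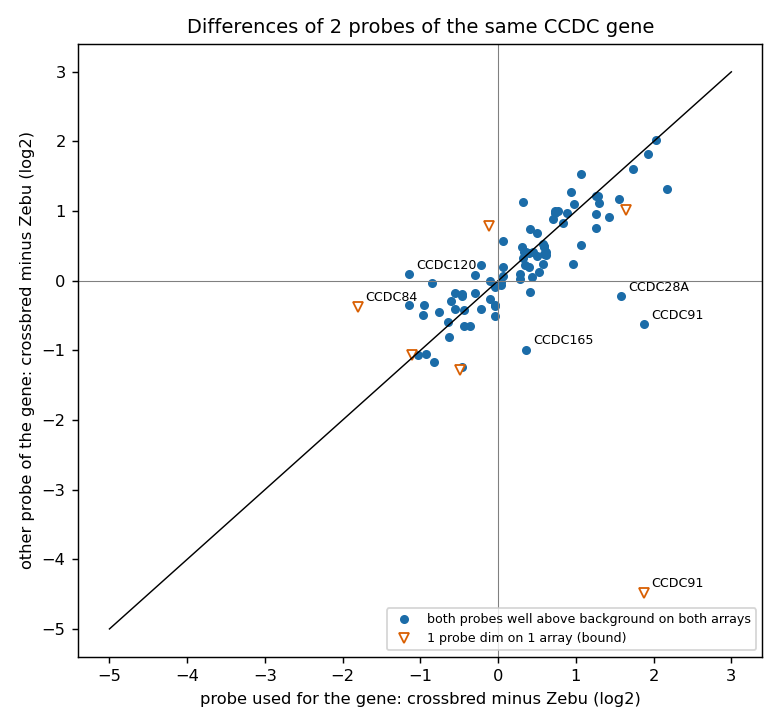
Crossbred minus Zebu difference (log2) of the probe used for a CCDC gene (x axis) and of each other detected probe of that gene (y axis), with the line of equality; blue points are pairs well above background on both arrays, and open orange triangles are pairs in which 1 probe is a bound. Genes whose probes lie more than 1 apart are named; the lowest triangle is the CCDC91 probe in the dark patch at -4.48.

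The patches held 2 of the 232 probes. The dark patch, rows 54 to 99 and columns 35 to 46, held the CCDC12 spot and the third CCDC91 spot, and the median difference in it was -1.37, against -0.07 outside the patches. The bright patch, rows 153 to 167 and columns 50 to 56, had a median of 1.29 and held 0 CCDC spots. Around the other 230 CCDC probes the median of the nearest spots ran from -0.71 to 0.58, and 0 of 230 were beyond 1. For the 15 higher genes it ran from -0.35 to 0.53. The highest of these were CCDC125 at 0.53 and CCDC105 at 0.46, both larger than the spot SD of 0.33. CCDC105 itself differed by 1.52, close to the threshold. Without the spots of the patches 15 CCDC genes were higher and 1 was lower, CCDC84.

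**Figure D4:**
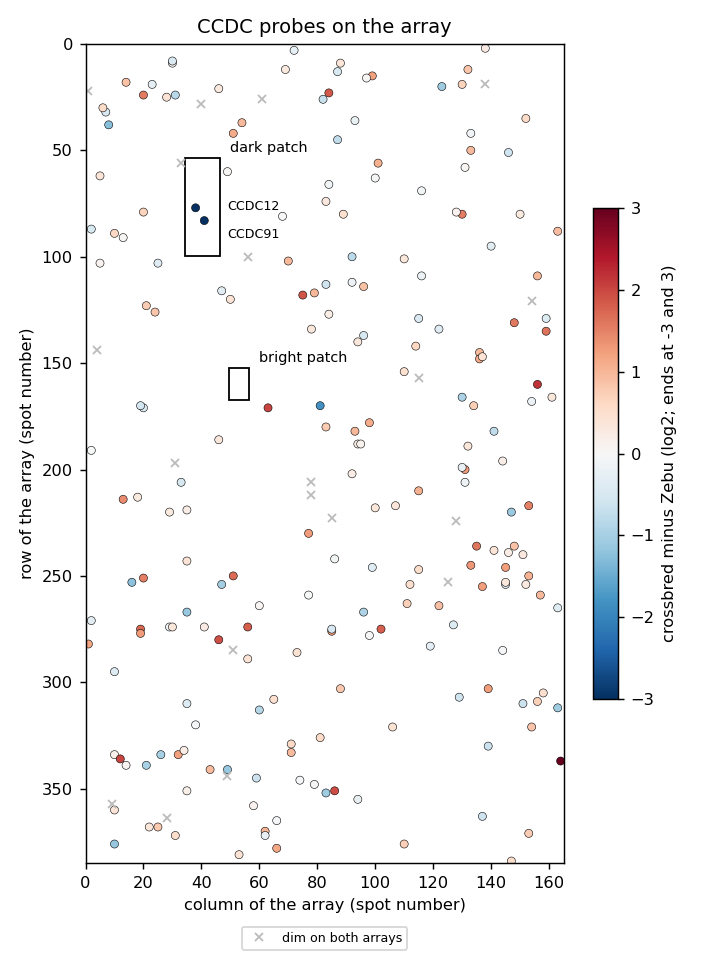
Place of each CCDC probe on the array (column on the x axis, row on the y axis, in spot numbers), coloured by its crossbred minus Zebu difference, with colours ending at -3 and 3; boxes mark the dark and bright patches and crosses are probes not well above background on either array. Only the CCDC12 and CCDC91 spots lie in a patch, and red and blue points are spread over the rest of the array.

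Across the 121 genes the difference had a Pearson correlation of 0.11 with the mean level, 0.14 with the GC content of the probe, which ran from 35 to 70 percent, and 0.05 with the median of the nearest spots. These are descriptions across genes, which share both arrays. The only CCDC genes placed on the X chromosome with a measured difference were CCDC22 and CCDC120, with values near -1 on the probes used. Their other detected probes gave -0.35 for CCDC22 and -0.34 and 0.09 for CCDC120. The annotation gave no chromosome for the used probe of 10 further measured genes, so the X chromosome is not fully covered.

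Markers of testicular cell types differed in direction from one cell type to another. All 7 spermatid markers lay above 0 with a median of 1.71, 4 of them at the threshold, and their summed level was 9.07 in the crossbred and 8.11 in the Zebu pool. The 4 spermatocyte markers had a median of 0.62 and summed levels of 2.70 and 2.19. All 5 spermatogonial markers lay below 0 with a median of -0.71, as did all 5 Sertoli cell markers at -1.09, all 5 Leydig cell markers at -1.0 and all 4 peritubular markers at -0.77. Defining markers of germ, Sertoli and Leydig cells were well above background on both arrays, as the tissue label has it. The sperm list lay on the same side of 0 as the spermatid markers. The secreted median lay below 0 like those of the Sertoli, Leydig and peritubular markers, but unlike that of the endothelial markers. The secreted list has only 4 genes, 3 of them below 0, which is near the background. The part of cell composition in the CCDC differences was not tested.

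Markers of multiciliated duct cells and of epididymis were examined because efferent ducts carry motile cilia. Of the 5 multiciliated markers on the array 4 lay above 0 with a median of 0.82, and their summed level was 3.0 against 2.18. FOXJ1, the regulator of motile cilia, read -4.81 against -5.45. Of the epididymal markers CRISP1 and ADAM28 were not well above background on either array, DEFB1 differed by -0.03, and GPX5 was well above background in the crossbred pool only, with a bound of 3.47. Endothelial markers had a median of 0.11 and macrophage markers of -0.10. Red blood cell markers had a median of 0.09, within which HBA differed by -2.15 and HBB was not well above background. Their part in the axoneme and sperm values was not tested.

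**Figure D5:**
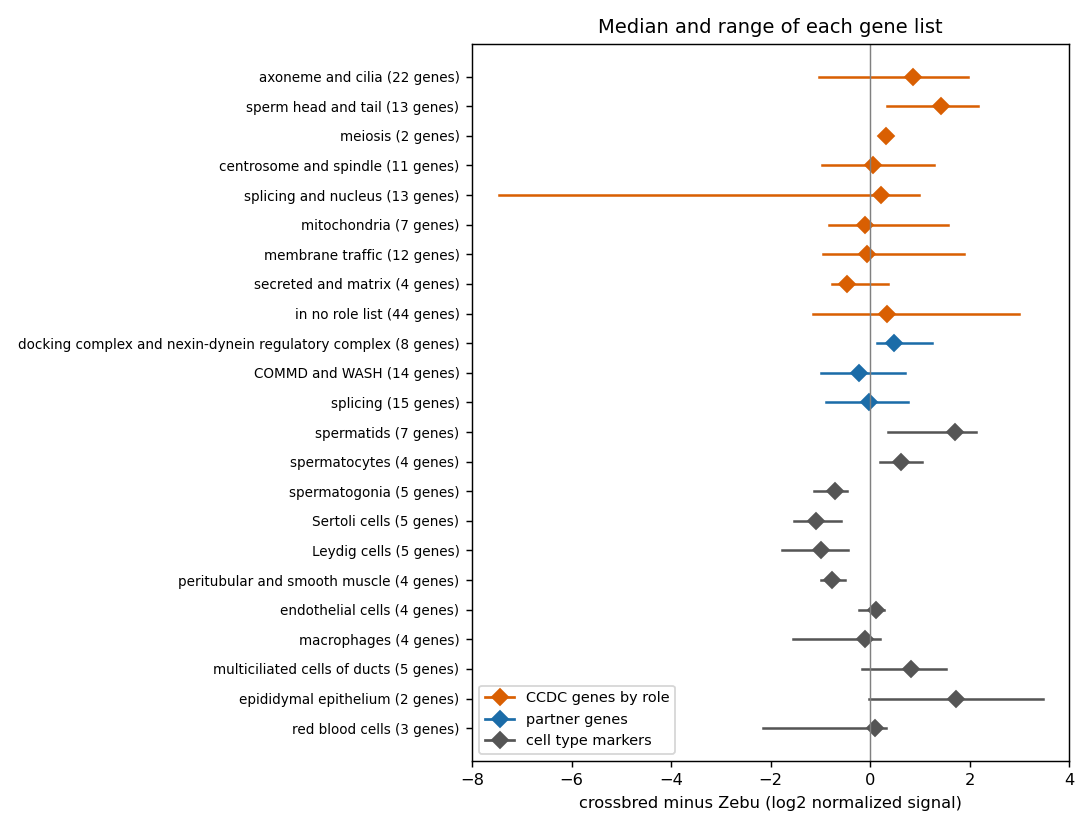
Median (diamond) and range (line) of the crossbred minus Zebu difference (log2 normalized signal, x axis) for CCDC genes by role (orange), partner genes without the CCDC name (blue) and cell type markers (grey), with the number of detected genes of each list. The CCDC sperm list lies at 1.43 and the spermatid markers at 1.71. The secreted list of 4 genes, 3 of them below 0, lies at -0.47 and the Sertoli markers at -1.09.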

How the data were processed

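Scanned arrays were quantified by the authors with Agilent Feature Extraction 11.5.1.1. Its processed signal, an intensity corrected for background and for trends across the array, was deposited per spot together with mean and local background intensities. They also deposited log2 values shifted to the 75th percentile of each array, used here only as an alternative. By the authors' methods the RNA of 3 bulls was pooled per group, and the series has 1 array per group. The number of arrays therefore limits the precision, and no test was made.

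From the processed signal, log2 values were taken with control spots and 13 outlier spots left out, 1 of them a CCDC127 spot. Replicate spots were averaged, and each array was shifted by the 75th percentile of its non-control probes. Of several probes of a gene, the one with the highest mean log2 level was used. The members and all gene lists were chosen with earlier results of these data known. A partner gene of the calcium uniporter is not reported here, so that list is incomplete and was given no count, median or plot. Named genes were those at 1.5 or more in size, in a patch, with a bound of 2-fold or more, in the axoneme, sperm, meiosis, mitochondria or secreted lists, or with 3 or more detected probes, and the 2 highest and 2 lowest of each other list.

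Names on the array were matched to the ARS-UCD2.0 gene table, 96 genes by accession, 26 by symbol and 1 by synonym, and 4 were unmatched; 31 have a newer symbol. Sequences and coordinates are those of the array annotation. Shared stretches of 25 bases or more between probes were searched on both strands. The steps were tested on simulated data. Alternatives tried were the normexp correction (offset 50, limma 3.58.1 in R 4.3.3), shifts by another level, quantile normalization, the deposited log2 values, and other thresholds, filters and probe rules, with and without the patches. Python 3.11.15, numpy 2.4.6, pandas 2.3.3 and scipy 1.17.1 were used.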

Additional observations from a re-analysis of the deposited data

How the results depend on the processing

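The higher and lower counts of 15 and 2 moved most with the threshold: a log2 threshold of 1 gave 26 and 7, a threshold of 2 gave 3 and 1, and a linear fold of 1.5 gave 47 and 18. Normexp background correction and quantile normalization each gave 13 higher, the percentile over detected probes 14, and the median shift and the authors' log2 values 15, all with 2 lower. The lower count was 1 with the patches left out, with probes measured on both arrays only, and with the mean of all probes, which gave 11 higher. With the mean of all probes and the patches left out together, an alternative chosen after seeing the data, 11 were higher and 0 lower. Of the called genes the higher share was 88.2%, 72.3% at a linear fold of 1.5, 78.8% at 1, 75% at 2, and between 86.7% and 88.2% under the background correction, the shifts, quantile normalization and the authors' log2 values. It was 91.7% with the mean of all probes, 93.8% with probes measured on both arrays only or with the patches left out, and 100% with the patches left out and probes averaged. These shares rest on few called genes. Calls also leaned to the crossbred pool over all detected transcripts, with 1762 higher and 722 lower at 1.5. At a threshold of 1 there were 3173 higher and 2196 lower.

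The CCDC median stayed between 0.32 and 0.35 under every alternative, and the median of all transcripts between -0.08 and -0.01. The list medians ran from 0.76 to 0.87 for axoneme and cilia and from 1.20 to 1.45 for sperm head and tail. Among single genes, 1199 of 1226 values moved by less than the spot SD and 26 by more. Among the genes at the threshold CCDC91 alone reversed, with the mean of all probes, from 1.88 to -1.07, and was 0.62 when the patches were also left out; the probes of the gene disagree. With the mean of all probes CCDC28A was 0.68, CCDC84 was -1.09, and CCDC165, chosen after its values were seen, was -0.32 in place of 0.36. Normexp gave 1.68 for CCDC129, 1.44 for CCDC149 and -5.41 for CCDC12. The cause was not tested.

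No paired analysis was possible because each group has 1 array, and leaving out a replicate was not possible for the same reason. Signal over background left 4 CCDC genes with no difference and CCDC12 and CCDC141 with a bound.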
